A study of Mus musculus with 7 samples.

Results

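The 37 genes described here encode proteins of ribosome biogenesis and of the nucleolus, together with Myc, a transcription factor known to drive many of them. They were taken by gene symbol from a table of 52224 genes, and the rule uses no measured value. All 37 symbols were found. All 37 also passed the filter on low values (an FPKM, fragments per transcript length, scaled to the number of mapped fragments, of at least 1 in at least 2 libraries), as did 13865 genes in all. By role the set holds 5 genes of RNA polymerase I and its factors, 9 of the small nucleolar ribonucleoprotein particles (snoRNPs), 6 of small subunit processing, 11 of large subunit processing, 5 multifunctional nucleolar genes and Myc. RNA came from haematopoietic stem cells, the bone marrow cells that renew the blood. Wild-type C57BL/6J mice were the source, and the sort took LSK cells (no lineage markers, Sca-1+ and c-Kit+) with CD150 and without CD48. Cells then spent 48 h in culture with gemcitabine at 0.5 µM (Gem, 2 libraries), with hydroxyurea at 100 µM (HU, 2 libraries) or with the solvent DMSO (3 libraries). Both drugs disturb DNA replication, gemcitabine as an analogue of deoxycytidine and hydroxyurea by blocking ribonucleotide reductase. Whether replicate libraries stand for different animals or dishes is not in the labels; a p-value here reflects how far the libraries scatter, and that scatter may be technical.

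A ribosome begins in the nucleolus, where RNA polymerase I copies the ribosomal DNA into a long precursor RNA. SnoRNPs of the box C/D kind guide methylation of that precursor and those of the box H/ACA kind guide its conversion of uridine to pseudouridine, while large assemblies of processing factors fold it, cut it and join it with ribosomal proteins into a small and a large subunit. Dividing cells spend much of their energy on this work, and in blood stem cells the rate of protein synthesis is known to be kept low and under tight control.

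Of the 37 genes, 30 had a promoter window in RefSeq (GRCm38.p6; 250 bases before to 50 bases after the start). Bop1, Fbl, Gnl2, Myc, Npm1, Rrs1 and Tcof1 had no entry there. The E-box CACGTG, the site to which MYC and its partner MAX bind, was searched on both strands, on which its letters read the same, and occurred in 6 of the 30 windows (Mybbp1a, Nop2, Pes1, Rrn3, Utp20 and Wdr43), against 8.09% of 27025 genes in the same table. The ETS core CCGGAAG on either strand occurred in 8 of the 30 (Ebna1bp2, Emg1, Gar1, Nhp2, Noc2l, Nolc1, Nop2 and Rrn3), against 9.93% of genes. The palindromic NRF1 site occurred in 0 of the 30, against 1.07% of genes. No motif lies within the letters of another, and a match is a description of letters, not of binding. The stretches before the start are shown for 4 members: Rrn3 and Nop2, which hold E-boxes, and Emg1 and Nob1, which were among the 4 members that fell in HU also after the scaling described further on (the others, Fbl and Npm1, have no window). Capitals mark E-boxes and ETS cores. In Rrn3 the E-boxes begin 215 and 48 bases before the start, in Nop2 the E-box begins 60 and the ETS core 38 bases before it, and in Emg1 the ETS cores begin 120 and 44 bases before it. The ETS cores of Rrn3 lie across or after its start, outside the stretch. The Nob1 stretch, which ends where the annotated gene begins, holds none of the 3 motifs.
Rrn3, chr16:13780449-13780698, plus strand: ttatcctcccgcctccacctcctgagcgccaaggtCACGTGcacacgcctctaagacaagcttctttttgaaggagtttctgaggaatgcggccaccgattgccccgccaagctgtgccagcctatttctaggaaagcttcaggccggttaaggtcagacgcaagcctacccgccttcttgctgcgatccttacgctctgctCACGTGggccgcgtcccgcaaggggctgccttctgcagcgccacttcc
Nop2, chr6:125131633-125131882, plus strand: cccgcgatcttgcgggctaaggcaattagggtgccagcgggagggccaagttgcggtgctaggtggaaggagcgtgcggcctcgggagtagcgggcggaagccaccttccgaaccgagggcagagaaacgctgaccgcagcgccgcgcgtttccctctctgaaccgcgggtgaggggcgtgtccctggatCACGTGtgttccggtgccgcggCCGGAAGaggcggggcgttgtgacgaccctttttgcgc
Emg1, chr6:124712179-124712428, minus strand: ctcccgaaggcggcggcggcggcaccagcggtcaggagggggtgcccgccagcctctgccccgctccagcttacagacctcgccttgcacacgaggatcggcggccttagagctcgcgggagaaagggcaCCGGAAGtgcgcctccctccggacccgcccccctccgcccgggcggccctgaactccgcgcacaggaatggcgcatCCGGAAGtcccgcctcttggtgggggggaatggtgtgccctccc
Nob1, chr8:107425052-107425288, minus strand: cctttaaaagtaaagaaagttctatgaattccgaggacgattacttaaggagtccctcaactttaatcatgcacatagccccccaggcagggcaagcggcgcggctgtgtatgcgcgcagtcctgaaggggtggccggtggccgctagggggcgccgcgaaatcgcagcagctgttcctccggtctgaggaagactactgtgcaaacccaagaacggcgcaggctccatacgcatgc

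Over the whole table the libraries from drug-treated cells stood apart, which touches every value given for the 37 genes. The FPKM of all genes summed to 703016 and 729258 in Gem, 647760 and 651315 in HU, and 818775 to 832979 in DMSO. Between 27887 and 29158 genes were above 0 in Gem, 29687 and 31153 in HU, and 21251 to 23047 in DMSO. Of 1766 olfactory and vomeronasal receptor genes, which are known from sensory neurons, 955 and 1031 were above 0 in Gem, 1182 and 1204 in HU, and 373 to 400 in DMSO. The drug libraries, HU most, thus had lower totals and more genes listed above 0. The median of all genes tested was shifted by -0.25 (log2) in Gem and -0.30 in HU relative to DMSO. Counts and the values of most members are therefore given also after trimmed-mean scaling, which multiplies each library by a factor that brings the median genes together (shift of 0.01 in Gem and 0.02 in HU afterwards), and values after it are called scaled. Sequencing depth is unknown. Of 12 stem and progenitor markers, 2 (Fgd5 and Tek) were under 1 FPKM in all 7 libraries and Mecom exceeded it only in HU 1, while Cd34, Kit and Ly6a reached 128.47, 48.22 and 48.31 FPKM in DMSO. Genes of granulocytes and monocytes, 11 in the list, summed to 49445 and 51441 FPKM in Gem, 46188 and 49580 in HU, and 41342 to 46613 in DMSO. Scaled, that sum was 52864 to 55342 in the 4 drug libraries and 35856 to 40621 in DMSO, so that the groups no longer overlapped. Most of the sum came from Lyz2. Of the 11 genes, 7 had a scaled log2 fold change below 0 in each drug, with medians of -0.02 in Gem and -0.17 in HU. In bulk samples, fewer cells of a type and less RNA per cell cannot be told apart.

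Transcripts of ribosome biogenesis were lower in both drugs as deposited. The 37 genes together held 1744 and 1596 FPKM in Gem (mean 1670 ± 105, SD, n = 2), 1564 and 1502 in HU (1533 ± 44.2, n = 2), and 2457, 2285 and 2341 in DMSO (2361 ± 88.0, n = 3). The sum in Gem was 0.707 and that in HU 0.649 of the sum in DMSO, and every drug library lay below every DMSO library. In Gem 26 of the 37 fell and none rose, 70.3% against a background of 23.2% of all genes tested that were lower (1.5% were higher) by limma on log2(FPKM + 1) (Benjamini-Hochberg adjusted p below 0.05, two-sided). In HU 32 of the 37 fell and none rose, 86.5% against a background of 35.5% (4.46% higher). These backgrounds take in genes of low level, whose falls this scale understates, so they are not matched to the members by level. Among genes with a mean FPKM of at least 5, which all 37 reach, 3848 passed in Gem and 5069 in HU in either direction. Members made up 32 and 33 of these. The number of genes at that level is not given here, so these counts cannot be read as shares. Of all genes tested 3421 and 5541 passed in either direction. A background matched by level was not computed, and the class counts below, set against 23.2% and 35.5%, share this limit. The members that did not pass in Gem were Polr1a, Polr1b, Ubtf, Tcof1, Nop58, Utp20, Wdr12, Noc2l, Ncl, Ddx21 and Mybbp1a. In HU they were Polr1a, Tcof1, Rrp9, Noc2l and Mybbp1a. With the 4 drug libraries set against DMSO as 1 group, 33 fell against a background of 37.5% (2.98% higher). The comparisons of Gem and of HU share the 3 DMSO libraries, so their calls are not independent of each other.

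**Figure D1:**
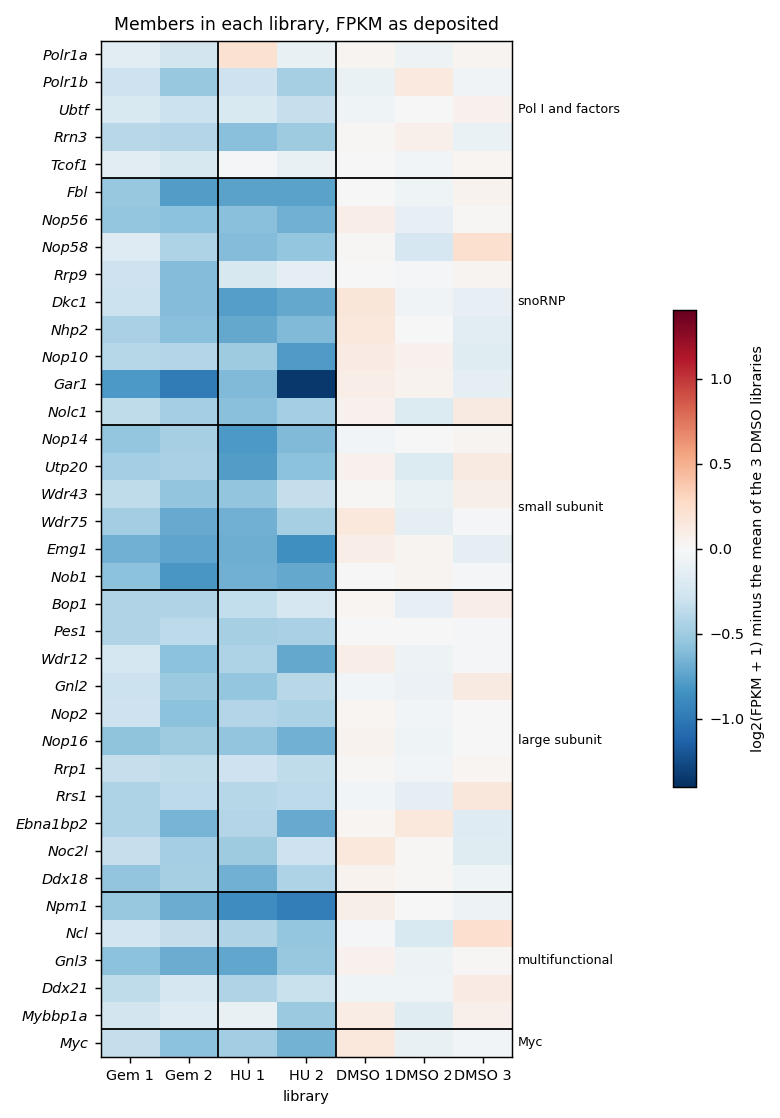
Each member (rows, grouped by class) in each of the 7 libraries (columns; Gem, HU, DMSO), as log2(FPKM + 1) as deposited minus the mean of the 3 DMSO libraries. Nearly all cells of the Gem and HU columns are blue, and the deepest is Gar1 in HU 2 (12.34 FPKM, against 29.99 to 35.25 in DMSO).

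The fall was small, and the median of all genes was lower in the drugs too. The median log2 fold change of the 37 genes was -0.43 in Gem and -0.55 in HU, against -0.25 and -0.30 for all genes tested. Relative to all genes the median was thus -0.19 in Gem and -0.25 in HU, and relative to genes with a mean FPKM of at least 5, a level all 37 share, it was -0.12 and -0.16. The median stayed below 0 under trimmed-mean scaling (-0.14 in Gem, -0.20 in HU), on the TPM scale, which gives every library the same total (-0.24 and -0.23), and under quantile normalization, which gives every library the same distribution (-0.09 and -0.07). After trimmed-mean scaling 0 of the 37 passed in Gem (background 0.469% lower and 0.483% higher; 10 members had an unadjusted p below 0.05) and 4 passed in HU (Npm1, Fbl, Emg1 and Nob1; 10.8% against 5.27%, with 4.75% higher). With the drugs as 1 group, those 4 and Gnl3 passed (5 of 37, background 3.61% lower and 2.37% higher). The scaled sums were 1846 and 1760 FPKM in Gem, 1790 and 1676 in HU, and 1981 to 2124 in DMSO, so the groups still did not overlap.

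**Figure D2:**
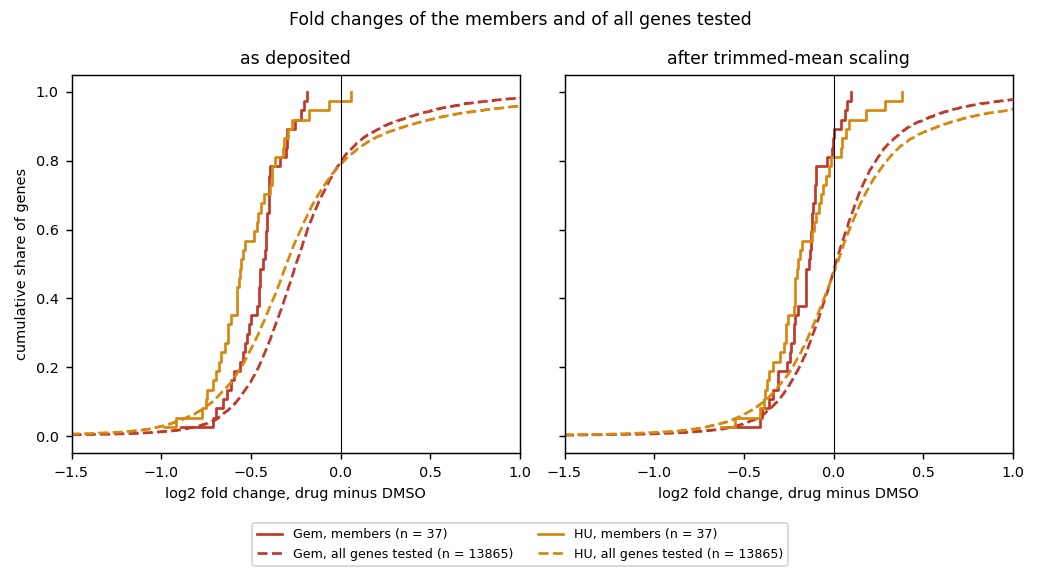
Cumulative share of genes (y axis) by log2 fold change against DMSO (x axis), for the 37 members (solid) and all 13865 genes tested (dashed) in Gem and HU, as deposited (left) and after trimmed-mean scaling (right). Over most of their range the members lie left of all genes in both panels, with medians of -0.43 and -0.55 as deposited, against -0.25 and -0.30.

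Counts in Gem rested on single libraries. No member passed in Gem without Gem 2, 14 passed without Gem 1, 11 without DMSO 1, 21 without DMSO 2 and up to 25 in the other fits with a library left out, and none of the 26 calls held in all 7 of them. The median fold change over the members in Gem nevertheless ran only from -0.49 to -0.39 in those fits. In HU 20 members passed without HU 1, 21 without HU 2 and up to 30 otherwise, and 16 of the 32 calls held in all 7. As deposited, both Gem libraries lay below all DMSO libraries for 36 of the 37 genes (background 50.4%), both HU libraries did for 34 (53.9%), and all 4 drug libraries did for 33 (42.6%). After scaling these counts were 15, 15 and 13 (backgrounds 17.3%, 19.7% and 11.1%). In the other direction, both scaled libraries lay above all DMSO libraries for 1 member in Gem and 3 in HU. A background for that direction was not computed.

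**Figure D3:**
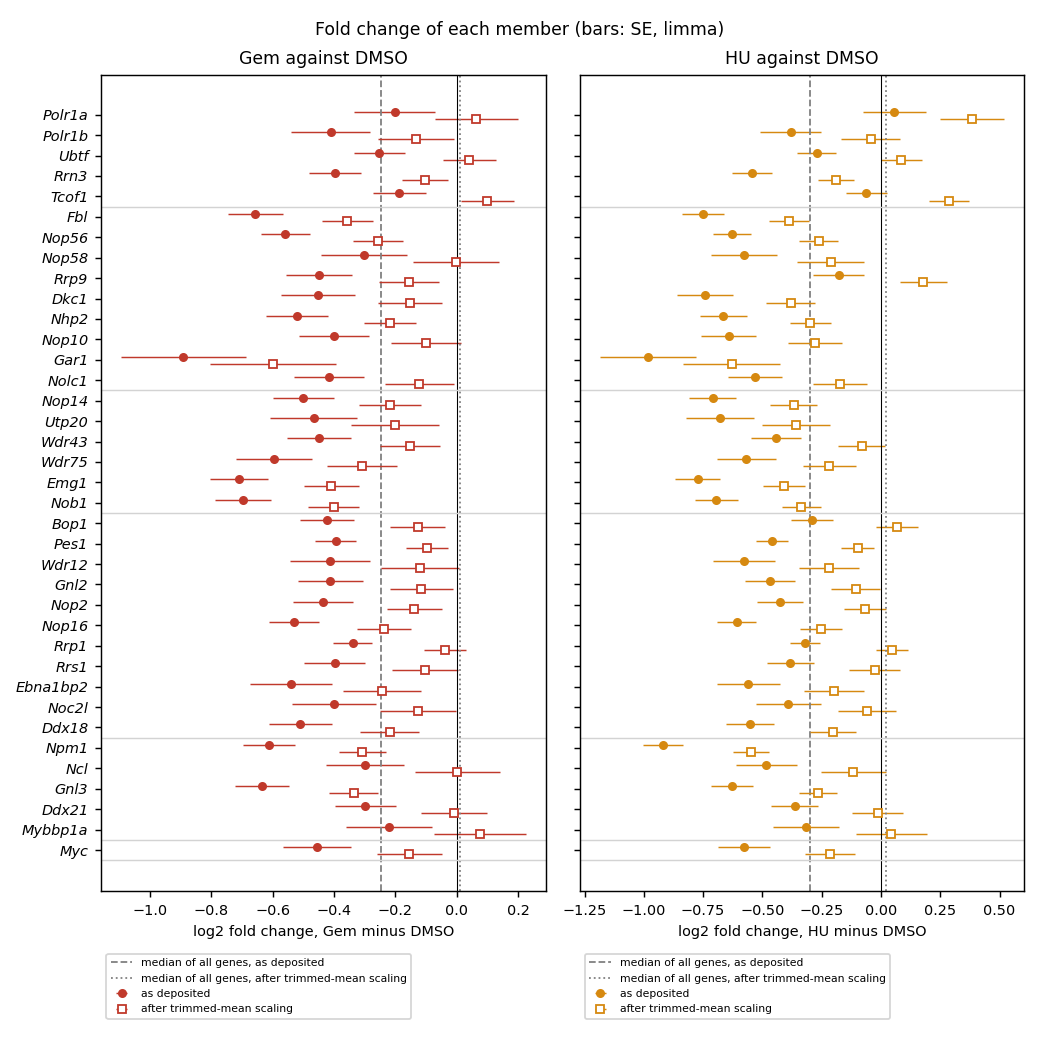
Log2 fold change against DMSO on the log2(FPKM + 1) scale (x axis, bars SE from limma) for each member (rows, by class) in Gem (left) and HU (right), as deposited (filled) and after trimmed-mean scaling (open). The dashed line marks the median of all genes tested as deposited and the dotted line that after scaling. After scaling Polr1a, Ubtf, Tcof1 and Mybbp1a lie above 0 in both drugs, Ncl in Gem and Rrp9, Bop1 and Rrp1 in HU.

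Of the member classes, the 5 genes of RNA polymerase I and its factors had the median fall nearest 0 as deposited. In all, 1 of 5 fell in Gem, a share near the background of 23.2%, and 3 of 5 in HU (background 35.5%), and the class median relative to all genes was -0.005 in Gem and 0.03 in HU. The class median itself was below 0 as deposited (-0.25 in Gem, -0.27 in HU) but above 0 after trimmed-mean scaling (0.04 and 0.09) and under quantile normalization (0.03 and 0.15), and on the TPM scale it was -0.06 in Gem and 0.06 in HU. Polr1a, the largest subunit of the enzyme, stood at 6.89 and 6.26 FPKM in Gem, 9.11 and 7.11 in HU and 7.91, 7.28 and 7.95 in DMSO. The 2 Gem libraries lay below DMSO, whereas the HU libraries lay on either side of it as deposited. After scaling the HU libraries, at 10.43 and 7.94 FPKM, lay above the DMSO libraries (6.31 to 7.11), and Gem 1, at 7.29, did too. Its log2 fold change was -0.20 ± 0.13 in Gem (SE; limma adjusted p = 0.295) and 0.06 ± 0.13 in HU (adjusted p = 0.76), and without HU 1 the HU value was -0.10. Scaled it was 0.06 in Gem and 0.38 in HU (limma adjusted p = 0.861 and 0.128). Polr1b, the other large core subunit, was at 10.06 and 8.37 FPKM in Gem, 10.04 and 8.77 in HU and 11.71, 13.90 and 12.07 in DMSO. All 4 drug libraries were below all DMSO libraries, but the fall passed in HU alone (-0.38 ± 0.13, limma adjusted p = 0.0493, lost in each fit with a library left out; Gem -0.41 ± 0.13, adjusted p = 0.0546), and the scaled values were -0.13 and -0.04.

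Rrn3 encodes the factor that readies the polymerase to start at the ribosomal DNA promoter, and it alone in this class fell in both drugs. It was at 23.73 and 23.42 FPKM in Gem, 20.58 and 21.84 in HU and 31.84, 32.95 and 29.37 in DMSO, with no overlap between drug and DMSO libraries. Its log2 fold change was -0.40 ± 0.08 in Gem (limma adjusted p = 0.0168, lost without Gem 1, Gem 2, DMSO 1 or DMSO 2) and -0.54 ± 0.08 in HU (adjusted p = 0.00315, held in all 7 fits with a library left out). After scaling it was -0.10 and -0.19 and passed in neither (limma adjusted p = 0.549 and 0.176). Ubtf, the upstream binding factor that coats active ribosomal DNA, was at 26.82 and 25.15 FPKM in Gem, 26.66 and 24.66 in HU and 29.84, 31.10 and 32.55 in DMSO. It lay below DMSO in every drug library and fell in HU (-0.27 ± 0.08, limma adjusted p = 0.036, held in 2 of the 7 fits with a library left out) with -0.25 ± 0.08 in Gem (adjusted p = 0.0619), but its scaled value was above 0 in both drugs (0.04 and 0.09). Tcof1, which encodes the nucleolar scaffold protein treacle, passed in neither drug (-0.19 ± 0.09 in Gem, -0.06 ± 0.09 in HU; scaled 0.10 and 0.29).

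Transcripts of snoRNP proteins fell more widely. As deposited 8 of 9 fell in Gem (background 23.2%) and 8 of 9 in HU (35.5%). Class medians were -0.45 and -0.64, or -0.20 and -0.34 relative to all genes. After scaling 0 fell in Gem and 1 in HU. Fbl encodes fibrillarin, the methyltransferase of the box C/D particles. It was at 58.94 and 49.27 FPKM in Gem, 50.42 and 50.45 in HU and 86.02, 82.26 and 88.52 in DMSO, and the highest drug value was well under the lowest DMSO value. Its log2 fold change was -0.66 ± 0.09 in Gem (limma adjusted p = 0.00687, lost without Gem 2) and -0.75 ± 0.09 in HU (adjusted p = 0.00149). After scaling it was -0.36 in Gem (limma adjusted p = 0.0984) and -0.39 in HU (adjusted p = 0.0308), the HU call being lost without DMSO 3. Nop56, a core protein of the same particles, was at 99.02 and 96.56 FPKM in Gem, 96.10 and 90.27 in HU and 153.93, 133.69 and 146.71 in DMSO. Every drug library was below every DMSO library, with a log2 fold change of -0.56 ± 0.08 in Gem (limma adjusted p = 0.00714, lost without Gem 2) and -0.63 ± 0.08 in HU (adjusted p = 0.00177), and scaled values of -0.26 and -0.26 that did not pass. Its partner Nop58 fell in HU (-0.58 ± 0.14, limma adjusted p = 0.0153, lost without HU 1 or HU 2) with -0.30 ± 0.14 in Gem (adjusted p = 0.151), and after scaling it passed in neither (-0.002 and -0.21). Among the DMSO libraries Nop58 ran from 76.16 to 105.18 FPKM, and Gem 1, at 79.66, lay within that range.

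The genes of the box H/ACA core proteins all fell in both drugs as deposited. Nhp2 was at 97.85 and 89.44 FPKM in Gem, 81.59 and 87.59 in HU and 149.26, 135.00 and 120.85 in DMSO. No drug library reached a DMSO library, and the log2 fold changes were -0.52 ± 0.10 in Gem (limma adjusted p = 0.0133, lost without Gem 2) and -0.66 ± 0.10 in HU (adjusted p = 0.00298). Scaled they were -0.22 and -0.30 and did not pass (limma adjusted p = 0.262 and 0.0733). Gar1 had the largest fall of the 37 genes in each drug, -0.89 ± 0.20 in Gem (limma adjusted p = 0.0204) and -0.98 ± 0.20 in HU (adjusted p = 0.0085). Its libraries also scattered, at 18.51 and 16.30 FPKM in Gem, 21.26 and 12.34 in HU and 35.25, 34.20 and 29.99 in DMSO, and its fall in HU was -0.61 without HU 2 and -1.35 without HU 1. The scaled values of Gar1, -0.60 and -0.63, did not pass (limma adjusted p = 0.207 and 0.103). GAR1, NHP2, NOP10 and dyskerin, the pseudouridine synthase encoded by Dkc1, also belong to telomerase. For Dkc1 the drugs gave log2 fold changes of -0.45 ± 0.12 in Gem (limma adjusted p = 0.0321) and -0.74 ± 0.12 in HU (adjusted p = 0.0036). For Nop10 they were -0.40 ± 0.12 in Gem (limma adjusted p = 0.0417) and -0.64 ± 0.12 in HU (adjusted p = 0.00517), and for Nolc1, a chaperone of snoRNPs, -0.42 ± 0.11 (adjusted p = 0.0352) and -0.53 ± 0.11 (adjusted p = 0.0096, lost without HU 1). The scaled values of Dkc1, -0.15 and -0.38, did not pass (limma adjusted p = 0.508 and 0.0616), nor did those of Nop10 (-0.10 and -0.28) and Nolc1 (-0.12 and -0.17). The Gem calls of Dkc1, Nop10, Nolc1 and Gar1 held in only 2, 3, 1 and 3 of the 7 fits with a library left out. Rrp9, a protein of the particle that guides the early cuts of the small subunit precursor, was the exception of its class in HU, as Nop58 was in Gem. Rrp9 fell in Gem (-0.45 ± 0.11, limma adjusted p = 0.0244, lost without Gem 2, DMSO 1 or DMSO 2). It passed neither as deposited in HU (-0.18 ± 0.11, limma adjusted p = 0.226) nor after scaling, where its HU value was above 0 (0.18).

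Transcripts of small subunit factors had the largest fall in class median. As deposited 5 of 6 fell in Gem (background 23.2%) and 6 of 6 in HU (35.5%). Class medians were -0.55 and -0.69, or -0.30 and -0.39 relative to all genes. After scaling 0 fell in Gem and 2 in HU. By summed level the class stood at 0.644 of DMSO in Gem and 0.624 in HU, and the multifunctional nucleolar genes at 0.691 and 0.588, so that by this measure they were the lower in HU. Emg1, a methyltransferase that modifies the small subunit RNA, was at 59.74 and 57.08 FPKM in Gem, 59.52 and 52.43 in HU and 102.84, 98.73 and 87.51 in DMSO. The gap between its highest drug library and its lowest DMSO library was 59.74 against 87.51. Its log2 fold change was -0.71 ± 0.10 in Gem (limma adjusted p = 0.00687) and -0.77 ± 0.10 in HU (adjusted p = 0.00161), and after scaling -0.41 (adjusted p = 0.0865) and -0.41 (adjusted p = 0.0324). Nob1, the endonuclease that makes the last cut in the small subunit RNA, was at 29.10 and 24.37 FPKM in Gem, 27.17 and 26.19 in HU and 43.68, 44.86 and 42.80 in DMSO. Its DMSO libraries lay close together, and its log2 fold change was nearly equal in the drugs, -0.70 ± 0.09 in Gem (limma adjusted p = 0.00669) and -0.69 ± 0.09 in HU (adjusted p = 0.00196). Scaled values were -0.40 (limma adjusted p = 0.0799) and -0.34 (adjusted p = 0.0462). As deposited, the Gem calls of Emg1 and Nob1 were lost only without Gem 2, and their HU calls held in all 7 fits with a library left out; without DMSO 3 the scaled HU call of Emg1 held and that of Nob1 did not.

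Among factors known from yeast as parts of the small subunit processome, the particle that forms on the nascent precursor, Nop14 was at 10.69 and 11.34 FPKM in Gem, 8.76 and 10.06 in HU and 15.57, 16.02 and 16.38 in DMSO. Drug and DMSO libraries did not overlap, and the fall was -0.50 ± 0.10 in Gem (limma adjusted p = 0.0142, lost without Gem 1 or Gem 2) and -0.71 ± 0.10 in HU (adjusted p = 0.00224). Utp20 was the member with the lowest level in both drugs, at 5.66 and 5.73 FPKM in Gem and 4.37 and 5.23 in HU, against 8.65, 7.11 and 9.12 in DMSO; it fell in HU (-0.68 ± 0.14, limma adjusted p = 0.00921, lost without HU 1) and in Gem had -0.47 ± 0.14 (adjusted p = 0.0505). Wdr43 and Wdr75, WD-repeat proteins of the same particle, fell in both drugs, with log2 fold changes of -0.45 ± 0.10 and -0.60 ± 0.12 in Gem (limma adjusted p = 0.0222 and 0.0162) and -0.44 ± 0.10 and -0.57 ± 0.12 in HU (adjusted p = 0.0143 and 0.0106). Their HU calls were lost without HU 1, and their Gem calls without Gem 2 or DMSO 1, for Wdr43 also without Gem 1. None of these 4 passed after scaling, with values from -0.31 (Wdr75) to -0.15 (Wdr43) in Gem and from -0.37 (Nop14) to -0.08 (Wdr43) in HU.

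**Figure D4:**
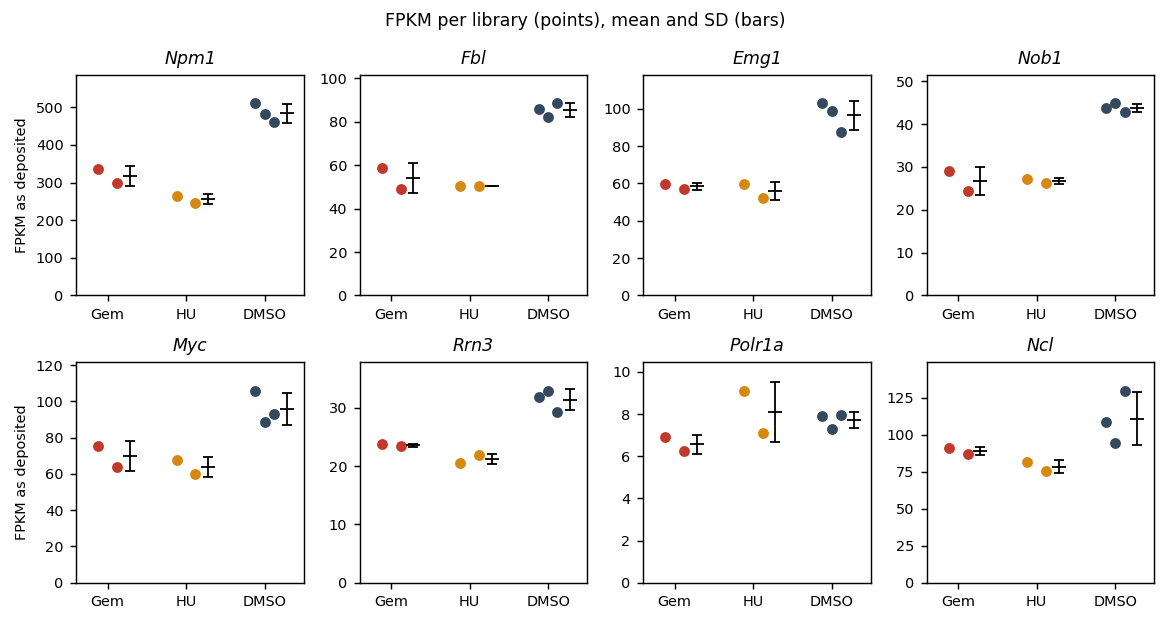
FPKM as deposited (y axis, from 0) in each library (points) of Gem, HU and DMSO for 8 members, with the mean and SD of each group beside the points. Npm1, Fbl, Emg1, Nob1, Myc and Rrn3 show drug libraries below all DMSO libraries, Ncl shows a smaller gap and a wide DMSO range (94.43 to 129.77), and for Polr1a the HU libraries (9.11 and 7.11) lie on either side of DMSO on this scale.

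Transcripts of large subunit factors fell nearly as widely but by less. As deposited 9 of 11 fell in Gem (background 23.2%) and 10 of 11 in HU (35.5%). Class medians were -0.41 and -0.46, or -0.17 and -0.16 relative to all genes. After scaling 0 passed in either drug (1 unadjusted p below 0.05 in each drug). Pes1, Bop1 and Wdr12 form a complex needed for the large subunit in mammals. Pes1 was at 36.11 and 37.30 FPKM in Gem, 34.82 and 35.25 in HU and 48.67, 48.87 and 48.07 in DMSO, so that replicates differed by little within each group. Its log2 fold changes were -0.39 ± 0.07 in Gem (limma adjusted p = 0.00959) and -0.46 ± 0.07 in HU (adjusted p = 0.00261), the first lost without Gem 2, and the scaled values were -0.10 and -0.10. Bop1 fell in both drugs, -0.42 ± 0.09 in Gem (limma adjusted p = 0.0162, lost without Gem 1, Gem 2 or DMSO 1) and -0.29 ± 0.09 in HU (adjusted p = 0.0345, held in 1 of 7 fits with a library left out). Wdr12 fell in HU (-0.58 ± 0.13, limma adjusted p = 0.0122, lost without HU 2) and had -0.41 ± 0.13 in Gem (adjusted p = 0.0558). Scaled, Bop1 was at -0.13 and 0.07 and Wdr12 at -0.12 and -0.22.

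Nop16, whose yeast relative joins early large subunit precursors, was at 22.63 and 23.85 FPKM in Gem, 22.91 and 21.02 in HU and 35.24, 32.64 and 34.15 in DMSO. All drug libraries lay below DMSO, with a log2 fold change of -0.53 ± 0.08 in Gem (limma adjusted p = 0.00826, lost without Gem 2) and -0.61 ± 0.08 in HU (adjusted p = 0.00206), and scaled values of -0.24 and -0.25. Ddx18, an RNA helicase, was at 16.51 and 17.62 FPKM in Gem, 15.11 and 18.03 in HU and 25.61, 24.93 and 23.60 in DMSO. It too showed no overlap and had a log2 fold change of -0.51 ± 0.10 in Gem (limma adjusted p = 0.014, lost without Gem 1, Gem 2 or DMSO 1) and -0.55 ± 0.10 in HU (adjusted p = 0.00555), and scaled values of -0.22 and -0.20. Rrp1, the most abundant of the class, was at 102.41 and 99.71 FPKM in Gem, 104.96 and 99.93 in HU and 129.47, 124.51 and 130.51 in DMSO. Its fall was among the smallest that passed, -0.34 ± 0.06 in Gem (limma adjusted p = 0.0127, lost without Gem 1 or Gem 2) and -0.32 ± 0.06 in HU (adjusted p = 0.00791), and near 0 after scaling (-0.04 and 0.05). The GTPase gene Gnl2, the RNA methyltransferase gene Nop2, Rrs1 and Ebna1bp2 fell in both drugs, with log2 fold changes from -0.54 (Ebna1bp2) to -0.40 (Rrs1) in Gem and from -0.56 (Ebna1bp2) to -0.38 (Rrs1) in HU. Their limma adjusted p-values ran from 0.0199 (Nop2) to 0.0299 (Gnl2) in Gem and from 0.0122 (Gnl2) to 0.0197 (Rrs1) in HU. All 4 Gem calls were lost without Gem 2 and also without DMSO 1. Those of Gnl2, Rrs1 and Ebna1bp2 were lost without Gem 1 too, that of Gnl2 without DMSO 3 and that of Ebna1bp2 without DMSO 2. The HU calls were lost without HU 1 (Gnl2), without HU 2 (Ebna1bp2) or without each of these (Nop2 and Rrs1). Noc2l, whose yeast relative escorts large subunit precursors, was at 8.39 and 7.48 FPKM in Gem, 7.34 and 8.67 in HU and 12.08, 10.92 and 9.48 in DMSO and passed in neither drug, though in each without DMSO 3 (-0.40 ± 0.14 and -0.39 ± 0.14; limma adjusted p = 0.0689 and 0.055).

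The multifunctional nucleolar genes were uneven. As deposited 2 of 5 fell in Gem (background 23.2%) and 4 of 5 in HU (35.5%). Class medians were -0.30 and -0.48, or -0.05 and -0.18 relative to all genes. After scaling 0 fell in Gem and 1 in HU. The class median was also below 0 after trimmed-mean scaling (-0.01 and -0.12) but just above it under quantile normalization (0.02 and 0.01). Npm1 encodes nucleophosmin, an abundant nucleolar histone chaperone that is often mutated in acute myeloid leukaemia. It had the highest level of the 37 genes in every group, 335.72 and 298.24 FPKM in Gem, 265.37 and 246.33 in HU and 510.40, 482.56 and 460.08 in DMSO. HU libraries were lowest, Gem libraries next and DMSO libraries highest, without overlap. Its log2 fold change was -0.61 ± 0.08 in Gem (limma adjusted p = 0.00695, lost without Gem 2) and -0.92 ± 0.08 in HU (adjusted p = 0.00102, held in all 7 fits with a library left out). After scaling it was -0.31 in Gem (limma adjusted p = 0.111) and -0.55 in HU (adjusted p = 0.0107), which also held without DMSO 3. Npm1 has close copies elsewhere in the genome, so reads may be shared with them.

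Gnl3 encodes nucleostemin, a GTPase that shuttles between nucleolus and nucleoplasm and is abundant in stem cells. It was at 42.81 and 39.14 FPKM in Gem, 38.46 and 43.99 in HU and 66.77, 61.03 and 64.62 in DMSO. The drugs gave nearly equal falls, -0.63 ± 0.09 in Gem (limma adjusted p = 0.00699, lost without Gem 2) and -0.63 ± 0.09 in HU (adjusted p = 0.00233), all drug libraries being below DMSO. Scaled they were -0.34 and -0.27 and did not pass (limma adjusted p = 0.105 and 0.0847). Ncl encodes nucleolin, which binds the precursor RNA, and was at 91.21 and 87.21 FPKM in Gem, 81.66 and 75.24 in HU and 108.43, 94.43 and 129.77 in DMSO. The groups did not overlap, yet DMSO 2 at 94.43 lay close to Gem 1 at 91.21. Ncl fell in HU (-0.48 ± 0.13, limma adjusted p = 0.0211, lost without HU 1, HU 2 or DMSO 1) and not in Gem (-0.30 ± 0.13, adjusted p = 0.125), and scaled it was at 0.0023 and -0.12. The helicase gene Ddx21 was at 15.84 and 17.37 FPKM in Gem, 15.16 and 16.46 in HU and 19.74, 19.78 and 22.44 in DMSO. Its 4 drug libraries were below DMSO, it fell in HU (-0.36 ± 0.10, limma adjusted p = 0.0244, lost without HU 1, HU 2 or DMSO 3), and scaled values were -0.01 and -0.01. Mybbp1a, a nucleolar partner of MYB that also takes part in precursor processing, passed in neither drug (-0.22 ± 0.14 and -0.32 ± 0.14; scaled 0.07 and 0.04).

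Myc fell in both drugs as deposited. It was at 75.62 and 63.82 FPKM in Gem, 67.76 and 59.99 in HU and 105.94, 88.92 and 92.88 in DMSO, and no drug library reached a DMSO library. Its log2 fold change was -0.46 ± 0.11 in Gem (limma adjusted p = 0.0257, lost without Gem 2 or DMSO 1) and -0.58 ± 0.11 in HU (adjusted p = 0.00674, lost without HU 2). After scaling it was -0.16 and -0.21 and passed in neither (limma adjusted p = 0.509 and 0.263), and the scaled libraries overlapped, with Gem 1 at 80.0 FPKM and DMSO 2 at 77.1. Of 10 tested partners and antagonists of MYC, 1 fell in Gem and 3 in HU, shares below the backgrounds of 23.2% and 35.5%. Mlx, a partner in the extended MYC network, was at 35.61 and 28.07 FPKM in Gem, 26.22 and 26.89 in HU and 49.46, 48.69 and 43.67 in DMSO, with a log2 fold change of -0.56 ± 0.11 in Gem (limma adjusted p = 0.0146) and -0.81 ± 0.11 in HU (adjusted p = 0.00224). After scaling it was -0.27 in Gem (limma adjusted p = 0.231) and passed in HU (-0.45, adjusted p = 0.0319). Mxd3, an antagonist that pairs with MAX, fell in HU (-0.73 ± 0.18, limma adjusted p = 0.0172; Gem -0.39 ± 0.18, adjusted p = 0.16) as deposited and passed in neither drug after scaling (-0.13 and -0.42). Mlxip passed in neither drug (-0.16 ± 0.10 and -0.30 ± 0.10; scaled 0.12 and 0.03). Of the members whose window held an E-box, Nop2, Pes1, Rrn3 and Wdr43 fell in both drugs as deposited, Utp20 in HU alone and Mybbp1a in neither. Of all members 70.3% fell in Gem and 86.5% in HU. None of those with an E-box passed in either drug after scaling, and a link between Myc and these genes was not tested.

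**Figure D5:**
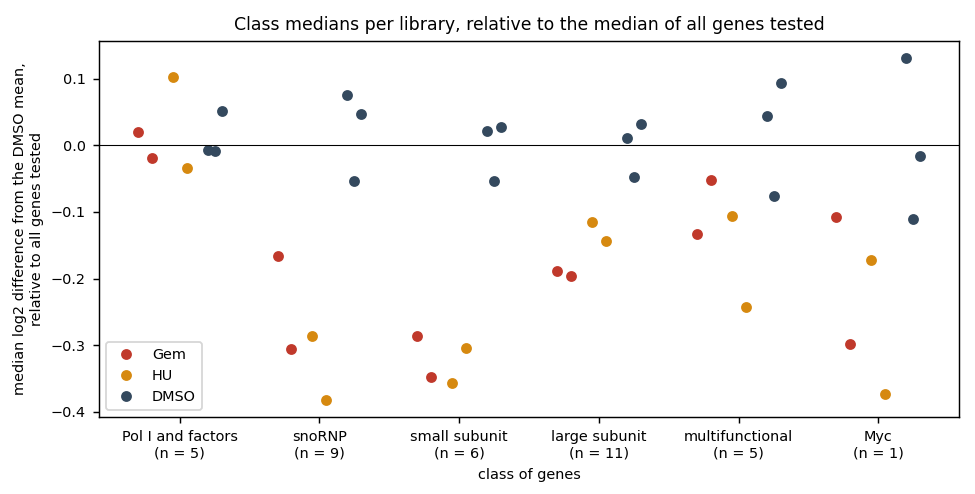
Median log2 difference of each class from its DMSO mean, less the median of all genes tested, as deposited (y axis), in each library (points) of Gem, HU and DMSO. The small subunit class lies lowest in each Gem library (-0.29 and -0.35) and the RNA polymerase I class lies between -0.03 and 0.10 in the 4 drug libraries, against -0.01 to 0.05 in DMSO.

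No member passed the test between Gem and HU. Between the drugs 0 of 37 passed (limma, background 0.0216% higher and 0.0793% lower; 1 unadjusted p below 0.05), and the log2 difference of Gem from HU ran from -0.27 for Rrp9 to 0.31 for Npm1, with a median of 0.07 against 0.06 for all genes. The smallest adjusted p was that of Npm1, 0.328. The sign of the differences depended on the scaling, with values below 0 for 13 of the 37 as deposited, for 18 after trimmed-mean scaling and for 27 on the TPM scale. A p that misses the threshold does not show that the drugs act alike, and with 2 libraries each the comparison is coarse.

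Other genes of the pathway, 136 tested from 5 further lists, fell in part as well. As deposited 72 fell in Gem (background 23.2%) and 93 in HU (35.5%) and none rose. After scaling 1 fell in Gem, a share near the background of 0.469%, and 15 in HU (background 5.27%). Their median relative to all genes was -0.13 in Gem and -0.16 in HU. Of 16 further RNA polymerase I genes 9 fell in Gem and 10 in HU, with medians of -0.54 and -0.52 (-0.24 and -0.17 after scaling), further from 0 than those of the 5 members; this difference was not tested. Among these Polr2h, a small subunit shared by RNA polymerases, was at 29.24 and 28.53 FPKM in Gem, 23.70 and 23.28 in HU and 51.97, 53.53 and 45.78 in DMSO, and it passed in both drugs also after scaling (-0.48 and -0.71; limma adjusted p = 0.0475 and 0.00703). Polr1h, a small subunit of RNA polymerase I itself, had log2 fold changes of -0.77 ± 0.13 in Gem and -0.88 ± 0.13 in HU (limma adjusted p = 0.00976 and 0.00296), and Polr2e, another shared subunit, of -0.56 ± 0.10 and -0.60 ± 0.10. After scaling Polr1h passed in HU alone (-0.52, limma adjusted p = 0.0341; Gem -0.48, adjusted p = 0.106) and Polr2e in neither. The difference between these subunits and Polr1a was not tested.

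Of 11 further snoRNP genes 4 fell in Gem and 9 in HU as deposited. The deposited counts in this paragraph stand against backgrounds of 23.2% of all genes lower in Gem and 35.5% in HU. Ruvbl1 and Ruvbl2, the ATPases that help snoRNPs to assemble, had log2 fold changes of -0.57 ± 0.08 and -0.62 ± 0.08 in Gem and -0.58 ± 0.08 and -0.60 ± 0.08 in HU (limma adjusted p = 0.00699 and 0.00687 in Gem, 0.00211 and 0.00224 in HU), and Pih1d1, which works with them, of -0.39 ± 0.09 and -0.51 ± 0.09. Of 50 further small subunit genes 29 fell in Gem and 37 in HU, their median relative to all genes being -0.12 and -0.16, with Fcf1, the nuclease relative of Nob1, at -0.76 ± 0.11 and -0.87 ± 0.11, Wdr46 at -0.51 ± 0.08 and -0.57 ± 0.08 and Ddx47 at -0.44 ± 0.07 and -0.55 ± 0.07. Of 45 further large subunit genes 20 fell in Gem and 26 in HU, with Rrp15 at -0.92 ± 0.13 and -0.88 ± 0.13, Pa2g4 at -0.65 ± 0.10 and -0.74 ± 0.10 and Nol12 at -0.61 ± 0.11 and -0.78 ± 0.11. Of 14 RNA exosome genes, which trim the precursor, 10 fell in Gem and 11 in HU, with Exosc5 at -0.55 ± 0.07 and -0.62 ± 0.07, Exosc3 at -0.58 ± 0.09 and -0.77 ± 0.09 and Exosc9 at -0.54 ± 0.09 and -0.74 ± 0.09. Each pair gives the log2 fold change in Gem and in HU as deposited, and all of these genes passed in limma in both drugs. After scaling none of these named genes passed in Gem, and in HU Fcf1, Rrp15, Nol12, Exosc3 and Exosc9 did. By list, 0 genes fell in Gem after scaling (background 0.469%). In HU 0 snoRNP, 4 small subunit, 3 large subunit and 4 exosome genes fell (background 5.27%).

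Markers of other cell types also differed between the groups, and their counts stand against backgrounds of 23.2% of all genes lower in Gem and 35.5% in HU. As deposited the 7 mast cell and basophil genes summed to 237 and 424 FPKM in Gem, 222 and 226 in HU and 304 to 1389 in DMSO (1 of 7 fell in Gem, 3 of 7 in HU), and none of them was at 0 in DMSO. Gem 1 lay above DMSO 3, so these groups overlapped. The 10 erythroid genes summed to 72.6 and 82.2 FPKM in Gem, 76.9 and 80.7 in HU and 122 to 164 in DMSO (4 and 3 of 8 tested fell), and every drug library lay below every DMSO library. The 7 megakaryocyte and platelet genes summed to 1699 and 1801 FPKM in Gem, 1351 and 1546 in HU and 1733 to 2806 in DMSO (0 and 3 of 7 fell). Of the stem and progenitor genes 3 of 9 fell in Gem and 5 of 9 in HU. Of the granulocyte and monocyte genes 4 of 11 fell in Gem and 5 of 11 in HU, whereas their summed level was 1.13 of DMSO in Gem and 1.08 in HU as deposited, 1.4002 and 1.39 after scaling, and 1.31 and 1.37 on the TPM scale. Lyz2, which encodes lysozyme, made up most of that sum, and it passed as higher in HU after scaling (0.79, limma adjusted p = 0.0481; Gem 0.75, adjusted p = 0.127). The counts for mast cells and for megakaryocytes in each drug were near or below the background. So were those for erythroid genes and for granulocytes and monocytes in HU, and for stem and progenitor genes in Gem. Lymphoid genes, 7 of 10 under 1 FPKM in every library, summed to 27.54 and 28.02 FPKM in Gem, 24.1 and 32.3 in HU and 34.7 to 38.4 in DMSO. Stromal and endothelial genes, of which Col3a1 was at 0 in every DMSO library, summed to 88.4 and 117 FPKM in Gem, 89.8 and 115 in HU and 91.5 to 159 in DMSO, with overlap. Of S phase and mitosis genes 6 of 12 fell in Gem and 9 of 12 in HU, with Birc5, a mitotic survival factor, at -0.69 ± 0.10 and -0.91 ± 0.10 as deposited. Scaled, the sums in Gem and HU were 0.525 and 0.374 of DMSO for mast cells and basophils, 0.692 and 0.738 for erythroid genes, 0.895 and 0.774 for megakaryocytes and platelets, 1.00 and 0.909 for stem and progenitor genes, 0.935 and 0.995 for lymphoid genes, 1.03 and 1.07 for stromal and endothelial genes, and 0.892 and 0.857 for S phase and mitosis. The part of these markers in the values of the 37 genes was not tested. DMSO 3, whose marker sums for mast cells and megakaryocytes were the lowest of DMSO, was the highest DMSO library for 16 of the 37 genes and the lowest for 12.

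In the annotation of GRCm38 (GENCODE M21) the 37 genes lie on 19 chromosomes, 6 of them on chromosome 1, with exonic lengths from 1109 to 11955 bases. Npm1 lies on chromosome 11 (33152287 to 33163206, minus strand), Fbl on chromosome 7 (28169710 to 28179269, plus strand), Emg1 on chromosome 6 (124704085 to 124712178, minus strand), Nob1 on chromosome 8 (107412486 to 107425051, minus strand) and Myc on chromosome 15 (61985391 to 61990374, plus strand). The values cover whole genes, so exons, introns and untranslated regions are not told apart. For 15 of the 37 a gene on the other strand covers part of an exon, among them Lpcat3 for Emg1, Idh3b for Nop56, Parp3 for Rrp9 and Pbrm1 for Gnl3. The overlap was taken over the whole span of the partner, introns included, and overlap of exons with exons was not checked. Reads are not stated to carry strand, so whether reads of the partner enter these values is not known. A pseudogene, Fbl-ps2, is listed beside Fbl. Across the 37 genes, which share the same libraries, Spearman's rho of the fold change with exonic length was 0.37 in Gem and 0.27 in HU, and with the mean level -0.21 and -0.36; across all tested genes with a length it was 0.07 and 0.08 with length, and -0.45 and -0.53 with level. Genes are not independent replicates, and these are descriptions.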

How the data were processed

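RNA levels were measured in 7 libraries of sorted mouse haematopoietic stem cells (2 Gem, 2 HU, 3 DMSO), grouped by their labels. Per the labels' protocols, RNA was extracted with a miRNeasy kit, amplified by the Geo-seq method for few cells and made into libraries with a TruePrep kit, a way of amplifying that can widen the spread of low genes. The authors deposited 1 table of FPKM per gene. Cufflinks 2.1.1 and Bowtie 0.12.9 are listed, with DESeq2, HTSeq and the build mm10, per the submitters' processing notes, which give neither role nor order. Which of them made the values, which annotation they used and whether strand counted is not given in the sources used here. Depth is unknown: steps in low values gave whole reads for only 27.8% to 33.9% of values (within 0.1 of a whole number), so no reads were recovered. No column was left unused.

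The members and the lists of other pathway genes and markers were chosen with earlier results of these data known. A gene was kept if 2 or more libraries reached an FPKM of 1 (13865 of 52224), and log2(FPKM + 1) was fitted over all 7 libraries with limma 3.58.1 in R 4.3.3 (group means, mean-variance trend, 4 residual degrees of freedom, two-sided, Benjamini-Hochberg over all genes tested, threshold 0.05). Fold changes on this scale understate those of low genes. Trimmed-mean scaling left out 30% of ratios and 5% of levels at each end. Alternatives were the scaling, TPM scale, quantile normalization, no filter, a pseudocount of 0.1, no trend, a floor of 5 on the mean FPKM, a replicate block, only the 2 groups compared and each library left out; scaling together with leaving out DMSO 3 was added after seeing the data. The fit was first tested on simulated data.

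Values in every library are given for Npm1, Ncl, Fbl, Polr1a and Myc, and for up to 3 members per class with the smallest p in each drug. Other members given so were chosen after their values were seen. Of each pathway list up to 3 genes are named, most of them by fold change. Among these, values in every library are given for Mlx, Polr2h, Snhg6, Snhg8 and Snhg15 alone. Gene positions came from GENCODE M21 on GRCm38 and promoter sequences from RefSeq on GRCm38.p6. Tables and figures were made with Python 3.11.15, pandas 2.3.3, scipy 1.17.1 and matplotlib 3.10.9.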

Additional observations from a re-analysis of the deposited data

How the results depend on the processing

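The direction of the members' median fold change against DMSO was below 0 in Gem and HU under every alternative, whereas the number of calls and the size depended on the scaling. With trimmed-mean scaling 132 genes passed in Gem, 1389 in HU and 830 with the drugs as 1 group, against 3421, 5541 and 5614 as deposited; 0, 4 and 5 members passed, the medians were -0.14 in Gem and -0.20 in HU and 0.0022 for Gem against HU, and the summed levels were 0.873 and 0.839 of DMSO. With DMSO 3 also left out these were 293, 1330 and 723 genes, 0, 3 and 4 members and medians of -0.13, -0.22 and 0.0022. On the TPM scale they were 440, 1478 and 1371 genes, 5, 4 and 10 members, medians of -0.24, -0.23 and -0.0722, and sums of 0.813 and 0.824. Under quantile normalization they were 67, 560 and 383 genes, 0, 0 and 0 members and medians of -0.0946, -0.0745 and -0.0313. In Gem, 1509 genes and 13 members passed with no filter and 2132 genes and 16 members with no trend. Between Gem and HU, 14 genes passed as deposited, 1 with a pseudocount of 0.1, 2 with no filter, 2 with a mean FPKM of at least 5, 64 with no trend and 1 with only the 2 groups compared.

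With each library left out in turn, 12 to 3367 genes passed in Gem, 3035 to 5192 in HU, 3774 to 5481 with the drugs as 1 group and 2 to 18 between Gem and HU. Members passing numbered 0 to 25 in Gem, 20 to 30 in HU, 30 to 33 with the drugs as 1 group and 0 to 0 between Gem and HU, and medians ran from -0.49 to -0.39 in Gem, -0.59 to -0.50 in HU and 0.0057 to 0.0951 for Gem against HU. The lowest Gem counts were those without Gem 2.

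With the replicate number as a block, 2877 genes passed in Gem, 4835 in HU, 4337 with the drugs as 1 group and 2 between Gem and HU, and 22, 26 and 28 members passed against DMSO. Same-numbered libraries had correlations of their deviations from -0.074 to 0.055, and libraries with different numbers from -0.055 to 0.074. With 2 libraries in a drug group the deviations mirror each other, so these values cannot tell whether the numbers pair the samples. DMSO 3 had no partner.

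Some members changed sign, none of them past the threshold after the change. With trimmed-mean scaling Polr1a, Ubtf, Tcof1, Ncl and Mybbp1a were at 0.0640, 0.0407, 0.0997, 0.0023 and 0.0746 in Gem, and Ubtf, Tcof1, Rrp9, Bop1, Rrp1 and Mybbp1a at 0.0855, 0.29, 0.18, 0.0676, 0.0454 and 0.0429 in HU. On the TPM scale Tcof1 was at 0.0040 in Gem, and Ubtf, Tcof1, Rrp9, Bop1, Rrp1 and Mybbp1a at 0.0608, 0.27, 0.1545, 0.0427, 0.0195 and 0.0174 in HU. Under quantile normalization Polr1a, Ubtf, Tcof1, Nop58, Rrp1, Ncl, Ddx21 and Mybbp1a were at 0.0260, 0.0788, 0.11, 0.10, 0.0893, 0.1055, 0.0157 and 0.12 in Gem, and Ubtf, Tcof1, Rrp9, Wdr43, Bop1, Pes1, Rrp1, Rrs1, Ncl, Ddx21 and Mybbp1a at 0.15, 0.31, 0.24, 0.0204, 0.14, 0.0057, 0.24, 0.0374, 0.0438, 0.0074 and 0.13 in HU. With a library left out, Polr1a in HU ran from -0.10 (without HU 1) to 0.2154 (without HU 2). The causes of these shifts were not tested. With 2 libraries per drug and no depth given, falls near 0.3 on the log2 scale cannot be told from the shift of all genes. Calls of larger falls depended on the scaling too. None of the 26 Gem calls passed after trimmed-mean scaling, and no member passed in either drug under quantile normalization.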

Other observations

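Non-coding transcripts that host snoRNAs were lower in both drugs as deposited. The 14 listed host transcripts held 797 and 698 FPKM in Gem, 549 and 565 in HU, and 1041 to 1350 in DMSO, and the mean sum was 0.619 of DMSO in Gem and 0.461 in HU (0.764 and 0.596 after trimmed-mean scaling). Of the 13 tested, 9 fell in Gem and 11 in HU as deposited (limma, backgrounds 23.2% and 35.5%). After scaling 1 and 6 fell (backgrounds 0.469% and 5.27%). Snhg6 was at 45.50 and 37.84 FPKM in Gem, 31.86 and 27.62 in HU and 101.77, 114.74 and 83.23 in DMSO, and its scaled log2 fold change passed in both drugs (-0.94 and -1.34; limma adjusted p = 0.0376 and 0.00494). Snhg8 was at 45.97 and 37.39 FPKM in Gem, 29.86 and 35.98 in HU and 78.39, 82.49 and 74.07 in DMSO, and Snhg15 was at 26.33 and 21.67 FPKM in Gem, 21.92 and 25.34 in HU and 40.93, 43.03 and 40.84 in DMSO. For these 3 no drug library reached a DMSO library. A test of host transcripts against the transcripts of snoRNP proteins was not run.

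Among 7 genes that link ribosomal proteins to p53, 4 fell in Gem and 6 in HU as deposited (backgrounds 23.2% and 35.5%). After scaling 0 and 2 fell (backgrounds 0.469% and 5.27%). Rps27l, a ribosomal protein relative that p53 is known to induce, had scaled log2 fold changes of -0.43 in Gem and -0.77 in HU (limma adjusted p = 0.0746 and 0.00703).

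The snoRNA genes inside members were almost unmeasured. The gene bodies of Nop56, Nop58, Dkc1, Wdr43, Ncl and Gnl3 hold 19 annotated snoRNA genes, of which 18 are in the table and 3 were above 0 in any library. Gm24451, inside Nop56, was above 0 in 5 libraries, at up to 21.75 FPKM.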
